A study of Mus musculus with 12 samples.

Results

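The T cell receptor beta (Trb) segments are the gene pieces from which every conventional T cell assembles 1 chain of its antigen receptor. All rows of the count table whose name starts with Trbv, Trbd, Trbj or Trbc were taken, which gave 53 of 54532 entries. They were 35 variable (V), 2 diversity (D), 14 joining (J) and 2 constant (C) segments. Counts were present for 45 of them, and 37 (21 V, 2 D, 12 J and 2 C) passed the filter on low counts. The 16 that did not were 8 V rows without a count, the V pseudogenes Trbv12-3, Trbv22, Trbv24, Trbv25 and Trbv27, and the low segments Trbv21 (33 counts in all libraries), Trbj1-1 and Trbj2-4.

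Total RNA was sequenced from CD4 T cells sorted straight from mixed spleen and lymph node of untreated wild-type C57BL/6 Foxp3-GFP mice with a polyclonal receptor repertoire, so the cells carry a green reporter of FOXP3 and no transgenic receptor. There were 4 subsets with 3 libraries each. Naive cells were CD44low, that is without the surface marker of earlier antigen contact. Effector cells (Teff) were CD44high FOXP3– CD73low FR4low, Anergic cells were CD44high FOXP3– CD73high FR4high NRP1+, and regulatory cells (Treg) were FOXP3+ CD25+. The labels do not say whether replicates came from separate mice, so the tests weigh differences against the variation among these libraries alone, and that variation may be technical. The libraries held 6909035 to 9527897 counts, of which 0.0538 to 0.0725% fell on Trb rows. Foxp3, the gene of the reporter, read 529 to 560 TMM-scaled CPM (counts relative to library size after edgeR's TMM scaling, written CPM from here on) in Treg, 15 to 20.3 in Anergic and at most 1.61 in the other subsets. Izumo1r, which encodes FR4, read 420 to 428 in Anergic, 292 to 329 in Treg and 48.4 to 75.2 in the others.

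A developing T cell cuts and joins its DNA so that 1 V, 1 D and 1 J segment form a single exon, which is spliced to a constant exon. The V segment encodes most of the chain's outer domain, including the loops that touch the MHC molecule, and the V-D-J joint encodes the loop that touches the peptide. The share of V segments among all V transcripts of a population (V usage) is therefore a coarse picture of its receptor repertoire, blind to the joint itself. In mice, invariant NKT cells, which recognise lipids on CD1d, pair a fixed alpha chain with beta chains of the older families Vβ8, Vβ7 and Vβ2, which are the Trbv13 family, Trbv29 and Trbv1.

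The locus spans chr6:40891229-41558452 in GRCm38 (667 kb), with the V segments first, then both clusters of D, J and C, and last Trbv31 on the minus strand. Trbv12-1 (older name Vβ5.2, chr6:41113550-41114067, plus strand) and Trbv12-2 (Vβ5.1, chr6:41118851-41119364, plus strand) are shown because they are near copies of which the first was called in Treg and the second was not. Their coding parts differ at 44 of 372 positions (88.2% identity). The last 240 coding bases are given 5′ to 3′ from GENCODE M21, with capitals at the 29 positions that differ there.
Trbv12-1: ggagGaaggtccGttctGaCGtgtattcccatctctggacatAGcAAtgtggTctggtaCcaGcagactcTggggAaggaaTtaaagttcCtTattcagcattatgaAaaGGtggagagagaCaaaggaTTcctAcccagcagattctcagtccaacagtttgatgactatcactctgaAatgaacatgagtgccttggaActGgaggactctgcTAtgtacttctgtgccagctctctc
Trbv12-2: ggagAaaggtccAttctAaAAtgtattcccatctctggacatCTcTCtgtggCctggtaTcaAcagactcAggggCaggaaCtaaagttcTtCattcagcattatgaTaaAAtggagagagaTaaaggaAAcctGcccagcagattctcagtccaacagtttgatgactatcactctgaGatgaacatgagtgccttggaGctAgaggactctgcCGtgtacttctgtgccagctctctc
The longest identical run was 44 bases, shorter than a 50-base read. None of the 340 windows of 50 bases in Trbv12-1 occurred in another annotated gene, so a full read on this gene has no exact second place among annotated transcripts.

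Trbv13-2 (Vβ8.2, chr6:41121396-41121832, plus strand) and Trbv13-3 (Vβ8.1, chr6:41130147-41130585, plus strand) are shown as a pair of which the first was called in Teff and the second was not. They differ at 32 of 340 coding positions (90.6% identity), 22 of them in the last 240 bases, in capitals.
Trbv13-2: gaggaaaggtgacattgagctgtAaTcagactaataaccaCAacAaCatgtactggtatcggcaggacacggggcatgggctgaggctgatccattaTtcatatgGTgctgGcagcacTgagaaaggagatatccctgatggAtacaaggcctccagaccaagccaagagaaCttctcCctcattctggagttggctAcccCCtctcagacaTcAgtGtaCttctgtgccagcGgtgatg
Trbv13-3: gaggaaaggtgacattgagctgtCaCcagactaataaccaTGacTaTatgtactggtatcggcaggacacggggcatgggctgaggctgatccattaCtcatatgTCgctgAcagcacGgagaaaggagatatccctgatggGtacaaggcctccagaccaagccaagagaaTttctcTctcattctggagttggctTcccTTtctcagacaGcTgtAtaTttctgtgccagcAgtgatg
Here 1 window of 50 bases was common to both. Trbv29 (Vβ7, chr6:41271394-41271881, plus strand), which also was high in Teff, is a distant relative with 62.1% identity to Trbv13-2. The last 60 coding bases of both end in the start of the V-D-J joint, with the cysteine codon that opens it in capitals.
Trbv29: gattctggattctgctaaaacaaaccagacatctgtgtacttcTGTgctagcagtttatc
Trbv13-2: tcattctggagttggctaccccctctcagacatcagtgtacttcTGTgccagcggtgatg

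A library held 1691 to 2574 Trbv counts in all. Of the 22 V segments annotated as functional, 19 took a mean of at least 1% of these counts and are shown in the plot of V usage. Trbv3 (Vβ16) was the most used, with 16.4% of Trbv counts over the 12 libraries, followed by Trbv13-2 with 11.5%. Scaled for exon length, so that segments can be set against each other, Trbv3 took 14.3%, Trbv13-2 13.3% and Trbv13-1 8.74%. The evenness of usage, as Shannon entropy, was 4.02 ± 0.0531 bits in Naive, 3.95 ± 0.0357 in Teff, 3.95 ± 0.0701 in Anergic and 3.95 ± 0.0346 in Treg (SD, n = 3), with overlapping libraries. The 5 most used segments took 50.5 ± 2.68% of Trbv counts in Naive and 54.1 ± 2.25% in Anergic, with Teff and Treg between (SD, n = 3).

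**Figure D1:**
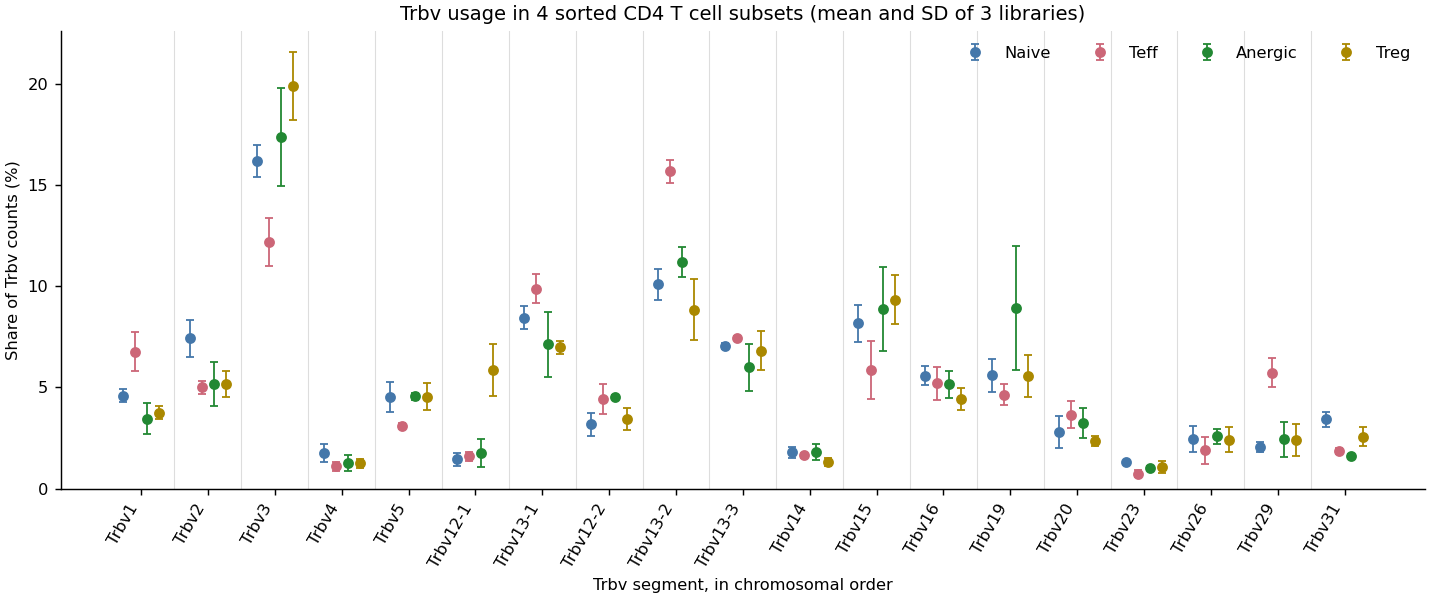
Share of Trbv counts (%) on the y axis for the 19 V segments with a mean share of at least 1%, in chromosomal order on the x axis. Points are means and bars SD of 3 libraries, coloured by subset. Trbv12-1 stands out in Treg (5.86% against 1.44 to 1.76% elsewhere), and Trbv29 and Trbv13-2 in Teff.

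Usage was compared in an edgeR fit of the whole table in which each library's summed Trbv counts stood as its size, so that its log2 ratios are ratios of shares. The shares of a library sum to 100, so a rise in 1 segment lowers the others. Of the 21 V segments tested, 12 differed among the 4 subsets, where 73.5% of all 13393 rows did. That background is high by construction, as every row of the table is divided by the Trbv total, which itself differed between subsets. The p-values were adjusted over these same rows. Many rows called through the divisor make the adjusted p of a V segment smaller than a background with few calls would. An adjustment over the V segments alone was not run, so calls of shares near the threshold are uncertain for this reason too. The counts of called segments rest on comparisons that share libraries. In Treg against Teff 4 segments were higher (7.09% of all rows) and 5 lower (30.2% of all rows, 37.3% either way). In Anergic against Teff 4 were higher (4.54%) and 4 lower (58.9%, 63.5% either way). In Teff against Naive 3 were higher (29.4%) and 5 lower (6.38%, 35.8% either way). In Anergic against Treg 2 were higher (7.56%) and 2 lower (30.0%, 37.6% either way), in Anergic against Naive 2 higher (14.4%) and 2 lower (38.5%, 53.0% either way), and in Treg against Naive 1 higher (14.9%) and 1 lower (12.7%, 27.6% either way). The median log2 fold change over all rows in this fit was -0.24, -0.48, 0.21, -0.24, -0.27 and -0.04 in the same order, while that of the 21 V segments was 0.05, 0.15, -0.12, 0.01, 0.07 and -0.05. Anergic against Treg fell to 2 calls without Treg replicate 2, Teff against Naive to 5 without Naive replicate 1, and Treg against Naive to 1 without Naive replicate 3.

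Treg stood apart in Trbv12-1. This segment took 5.44, 7.29 and 4.86% of Trbv counts in the 3 Treg libraries. It took 1.12, 1.72 and 1.48% in Naive, 1.73, 1.70 and 1.33% in Teff, and 1.06, 1.72 and 2.49% in Anergic libraries. Every Treg library lay above all 9 others. The Treg share exceeded Naive by 4.03-fold (log2 ratio 2.01 ± 0.259 SE, adjusted p = 8.73e-07), Teff by 3.68-fold (1.88 ± 0.257 SE, adjusted p = 2.17e-06) and Anergic by 3.31-fold (Anergic minus Treg -1.73 ± 0.242 SE, adjusted p = 3.09e-06). All 3 calls held under each alternative run. The counts behind them were 109 to 151 per Treg library and 20 to 64 per library elsewhere. Among Naive, Teff and Anergic cells no pair passed the test for this segment, and their libraries overlapped.

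The near copy Trbv12-2 took 4.04, 3.09 and 3.12% in Treg, 3.41, 3.59 and 2.54% in Naive, 4.27, 5.22 and 3.75% in Teff, and 4.46, 4.61 and 4.58% in Anergic libraries. Its share in Treg did not pass the test against Naive (log2 ratio 0.10 ± 0.192 SE, adjusted p = 0.749), Teff (-0.36 ± 0.185 SE, adjusted p = 0.126) or Anergic (Anergic minus Treg 0.41 ± 0.179 SE, adjusted p = 0.0761). The last passed with Treg replicate 1 left out (0.55, adjusted p = 0.0449), and all 3 Treg libraries lay below the Anergic ones. Whether both segments differed in their change was not tested. Anergic exceeded Naive by 1.42-fold (0.51 ± 0.185 SE, adjusted p = 0.0234), which did not hold with Naive replicate 3 left out (adjusted p = 0.126), nor with Anergic replicate 2 left out (adjusted p = 0.0545). The Trbv12 family as a whole, the pseudogene Trbv12-3 included, took 9.34 ± 1.15% of Trbv counts in Treg, 6.35 ± 0.754% in Anergic, 6.02 ± 0.923% in Teff and 4.68 ± 0.753% in Naive (SD, n = 3).

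Treg also had the highest mean share of Trbv3, with 19.9, 18.2 and 21.6% against 15.4, 17 and 16.1% in Naive, 12, 11.1 and 13.4% in Teff, and 19, 18.5 and 14.6% in Anergic libraries. It was Teff that lay below all other libraries. Teff was lower than Treg by 1.64-fold (Treg minus Teff 0.71 ± 0.118 SE, adjusted p = 3.33e-05), than Anergic by 1.43-fold (Anergic minus Teff 0.51 ± 0.118 SE, adjusted p = 6.99e-04) and than Naive by 1.33-fold (-0.41 ± 0.121 SE, adjusted p = 0.00936). Treg against Naive did not pass (0.30 ± 0.115 SE, adjusted p = 0.0531), although the libraries did not overlap, and it passed under 8 alternatives, among them the libraries without Treg replicate 2 (adjusted p = 0.0491).

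**Figure D2:**
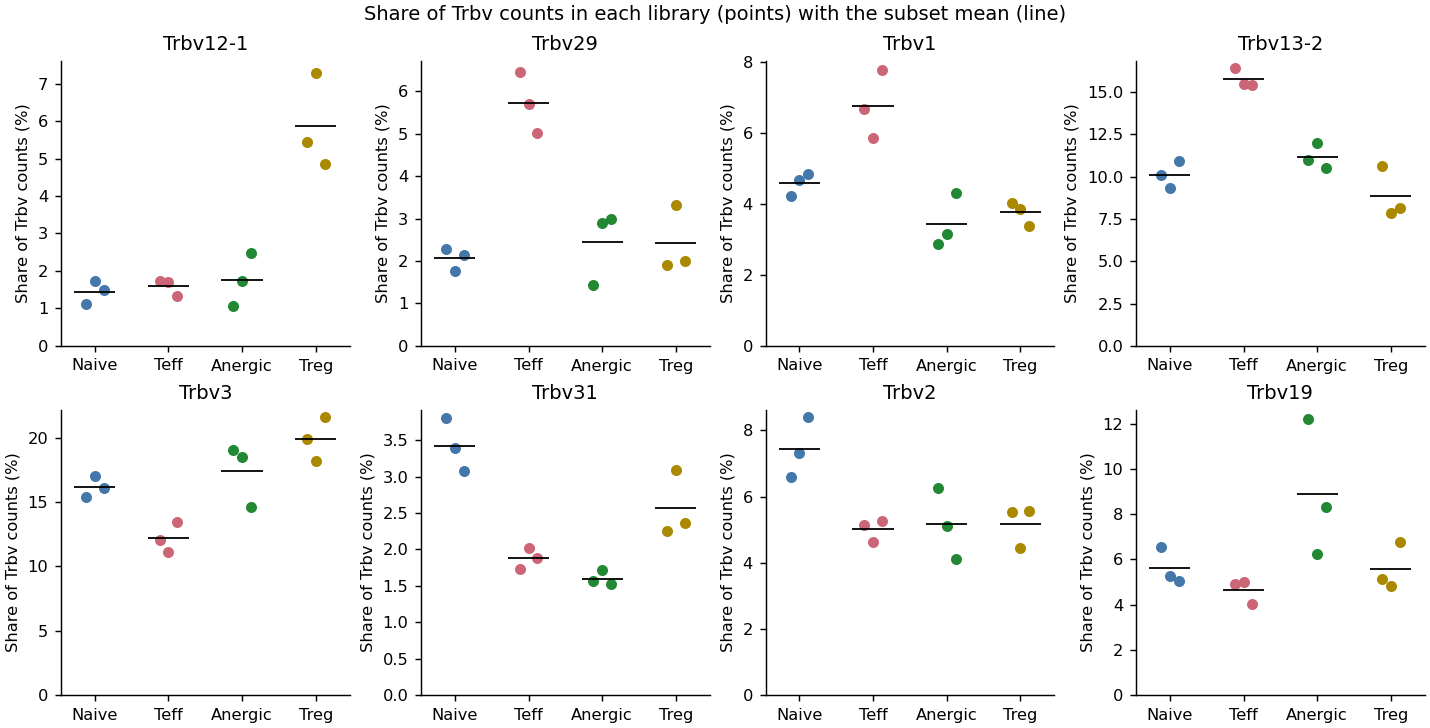
Share of Trbv counts (%) on the y axis of each panel for 8 V segments, by subset on the x axis. Each point is 1 library and each line the mean of 3. The Treg points of Trbv12-1 (4.86 to 7.29%) and the Teff points of Trbv29 (5.02 to 6.46%) lie above all others, and Anergic points of Trbv19 spread from 6.22 to 12.2%.

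In Teff the shares of Trbv29, Trbv13-2 and Trbv1 were the highest of the 4 subsets. Trbv29 took 6.46, 5.70 and 5.02% in Teff, against 2.29, 1.77 and 2.13% in Naive, 1.43, 2.89 and 2.99% in Anergic, and 1.91, 3.33 and 2.00% in Treg libraries. No other library reached the lowest Teff value. Teff exceeded Naive by 2.78-fold (log2 ratio 1.48 ± 0.253 SE, adjusted p = 4.55e-05), while Anergic minus Teff was -1.22 ± 0.238 SE (adjusted p = 1.26e-04) and Treg minus Teff -1.26 ± 0.242 SE (adjusted p = 2.05e-04). No pair of the other 3 subsets passed the test for Trbv29.

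Trbv13-2 took 16.4, 15.5 and 15.4% in Teff, against 10.1, 9.33 and 10.9% in Naive, 11, 12 and 10.5% in Anergic, and 10.6, 7.87 and 8.15% in Treg libraries. Again the Teff libraries did not overlap with the rest. The share in Teff exceeded Naive by 1.56-fold (0.64 ± 0.125 SE, adjusted p = 2.17e-04), Anergic by 1.41-fold (Anergic minus Teff -0.49 ± 0.121 SE, adjusted p = 0.00119) and Treg by 1.77-fold (Treg minus Teff -0.82 ± 0.124 SE, adjusted p = 9.59e-06). Anergic exceeded Treg by 1.25-fold (0.33 ± 0.124 SE, adjusted p = 0.0410). That last call was lost in 7 alternatives, among them those that left out Anergic replicate 1 (adjusted p = 0.0518), Anergic replicate 2 (0.142), Treg replicate 2 (0.183) and Treg replicate 3 (0.162).

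Its relatives had smaller folds. Trbv13-1 (Vβ8.3) was 9.88 ± 0.718% in Teff, 8.46 ± 0.575% in Naive, 7.13 ± 1.63% in Anergic and 6.99 ± 0.313% in Treg (SD, n = 3). It was called higher in Teff than in Anergic (Anergic minus Teff -0.47 ± 0.146 SE, adjusted p = 0.00767) and than in Treg (Treg minus Teff -0.50 ± 0.148 SE, adjusted p = 0.00966). The first call was lost without Anergic replicate 1 (adjusted p = 0.0578), and the second when Trbv3 was left out of the Trbv total (adjusted p = 0.0813). Trbv13-3 ranged from 5.24 to 7.93% over the 12 libraries and passed in no comparison. It did pass between Anergic and Teff without Anergic replicate 1 (-0.48, adjusted p = 0.00867) and between Anergic and Naive without the same library (-0.40, adjusted p = 0.0313).

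Trbv1 (Vβ2) took 6.69, 5.86 and 7.79% in Teff, against 4.24, 4.69 and 4.85% in Naive, 2.87, 3.17 and 4.31% in Anergic, and 4.04, 3.86 and 3.39% in Treg libraries. Teff again lay above every other library. Teff exceeded Anergic by 1.96-fold (Anergic minus Teff -0.97 ± 0.174 SE, adjusted p = 4.96e-05) and Treg by 1.80-fold (Treg minus Teff -0.85 ± 0.174 SE, adjusted p = 4.23e-04). Against Naive it passed as well (0.56 ± 0.174 SE, adjusted p = 0.0135), but not with Naive replicate 1 (adjusted p = 0.0539) or Teff replicate 3 (0.0821) left out. In Anergic against Naive it did not pass (-0.41 ± 0.180 SE, adjusted p = 0.0570) but did without Anergic replicate 3 (-0.61, adjusted p = 0.00966).

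Together Trbv1, the Trbv13 family and Trbv29 made up 46.6, 43.8 and 46.3% of Trbv counts in Teff. They made up 32.3, 30.5 and 34.0% in Naive, 28, 31.8 and 30.7% in Anergic, and 31.2, 28.8 and 26.5% in Treg libraries. The lowest Teff library was thus above the highest of the others, as a description of a sum that was grouped with earlier results known. Of the genes listed for innate-like T and NK cells, Zbtb16, Klrb1c and Klrk1 were also highest in Teff, and Traj18 was not. The 7 genes listed for these cells summed to 168 to 237 CPM in Teff, 33.2 to 43.2 in Anergic, 12.7 to 13.7 in Naive and 7.36 to 8.80 in Treg. Zbtb16, the transcription factor PLZF of invariant NKT cells, read 84.9 to 123 CPM in Teff, 17.8 to 28.2 in Anergic and at most 0.866 in the others. Klrb1c, the NK1.1 antigen, read 29.7 to 51.8 CPM in Teff, 4.34 to 5.31 in Anergic and at most 0.704 in the others. Klrk1 read 35.1 to 48.4 CPM in Teff and at most 0.587 in the others. Ncr1, a defining NK cell gene, had at most 1 count in a library, and Tyrobp, the adaptor of many NK cell receptors, at most 1.02 CPM. Traj18 is the alpha J segment of invariant NKT cells. It read 9.54 to 14 CPM in Teff, 12.4 to 12.6 in Naive, 8.77 to 11.8 in Anergic and 5.95 to 7.86 in Treg. The mean of Traj18 was highest in Naive (12.5 CPM, against 11.6 in Teff), where Klrb1c had no count and Zbtb16 a mean of 0.481 CPM. The level of Traj18 therefore cannot be read as an amount of invariant NKT cells here. Its V partner Trav11 had 1 count in all, but all 294 of its 50-base windows are shared with other Trav11 genes, so this row checks nothing. The part of such cells in the Teff usage was not tested. In sorted bulk RNA, moreover, fewer cells with a segment and less RNA of it per cell cannot be told apart.

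Trbv5 and Trbv15 were called lower in Teff than in each other subset, as Trbv3 was. Trbv5 (Vβ1) took 3.11, 2.93 and 3.20% in Teff, 5.36, 4.02 and 4.20% in Naive, 4.67, 4.38 and 4.66% in Anergic, and 4.43, 5.26 and 3.96% in Treg libraries. The Teff libraries lay below all others. Anergic exceeded Teff by 1.48-fold (0.57 ± 0.175 SE, adjusted p = 0.00720). The calls against Naive (-0.55 ± 0.180 SE, adjusted p = 0.0186) and for Treg (0.56 ± 0.177 SE, adjusted p = 0.0150) were lost without Naive replicate 1 (adjusted p = 0.120) or Teff replicate 2 (adjusted p = 0.0566), and without Treg replicate 2 (adjusted p = 0.0886). Trbv5 shares 77.4% of its 50-base windows with the lincRNA 5830405F06Rik, and Trbv4 72.1%, so their counts depend on how shared reads were assigned.

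Trbv15 (Vβ12) took 4.90, 7.51 and 5.19% in Teff, 7.54, 7.75 and 9.23% in Naive, 6.84, 8.87 and 11% in Anergic, and 7.93, 10.1 and 10.0% in Treg libraries. Treg exceeded Teff by 1.58-fold (0.66 ± 0.178 SE, adjusted p = 0.00481). Anergic exceeded Teff by 1.51-fold (0.60 ± 0.177 SE, adjusted p = 0.00532), with overlapping libraries, and not without Anergic replicate 3 (adjusted p = 0.0523). The call of Teff below Naive (-0.47 ± 0.183 SE, adjusted p = 0.0463) was lost in 9 alternatives, with an adjusted p of up to 0.179 without Naive replicate 3 or Teff replicate 1. Trbv20 (Vβ15) was 3.65 ± 0.666% in Teff and 2.36 ± 0.262% in Treg (SD, n = 3; Treg minus Teff -0.64 ± 0.231 SE, adjusted p = 0.0317), and lost that call in 5 alternatives, with an adjusted p of 0.148 without Teff replicate 2, 0.118 without Treg replicate 1, 0.0510 without Treg replicate 2 and 0.0644 without Treg replicate 3.

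Trbv31 was lower in Teff and Anergic than in Naive cells, and Trbv2 was lower in all 3 other subsets than in Naive cells. Trbv31 (Vβ14, chr6:41557691-41558452, minus strand), the only V segment downstream of the constant genes, took 3.80, 3.40 and 3.08% in Naive, 1.73, 2.02 and 1.88% in Teff, 1.56, 1.72 and 1.52% in Anergic, and 2.26, 3.09 and 2.36% in Treg libraries. Naive and Treg libraries overlapped, while Teff and Anergic lay below both. Anergic was lower than Naive by 2.14-fold (-1.10 ± 0.214 SE, adjusted p = 1.29e-04) and Teff by 1.82-fold (-0.86 ± 0.218 SE, adjusted p = 0.00288). Anergic was also called below Treg (-0.68 ± 0.215 SE, adjusted p = 0.0154), but not without Treg replicate 2 (-0.53, adjusted p = 0.0973).

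Trbv2 (Vβ4) took 6.59, 7.32 and 8.40% in Naive, against 5.13, 4.64 and 5.25% in Teff, 6.26, 5.12 and 4.12% in Anergic, and 5.52, 4.44 and 5.57% in Treg libraries. All Naive libraries were above all others. The shares were lower than Naive in Teff (-0.57 ± 0.168 SE, adjusted p = 0.00949), Anergic (-0.52 ± 0.162 SE, adjusted p = 0.00867) and Treg (-0.52 ± 0.163 SE, adjusted p = 0.0189). All 3 calls were lost without Naive replicate 3, the highest library, where the adjusted p was 0.0608 in Teff, 0.0561 in Anergic and 0.107 in Treg. The Anergic call was also lost without Anergic replicate 3 (adjusted p = 0.0572), and the Treg call without Treg replicate 2 (adjusted p = 0.106) or with Trbv3 left out of the total (adjusted p = 0.0591).

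Anergic cells had a high and uneven share of Trbv19 (Vβ6, chr6:41178375-41179048, plus strand). It took 12.2, 6.22 and 8.31% in Anergic, 6.53, 5.26 and 5.03% in Naive, 4.90, 5.01 and 4.03% in Teff, and 5.13, 4.83 and 6.77% in Treg libraries. Anergic replicate 1 was the highest library, and Anergic replicate 2 lay within the range of Naive and Treg. Anergic exceeded Teff by 1.92-fold (0.94 ± 0.200 SE, adjusted p = 3.29e-04), without overlap. It was called above Naive (0.67 ± 0.196 SE, adjusted p = 0.00586) and Treg (0.68 ± 0.191 SE, adjusted p = 0.00708), and both calls were lost without Anergic replicate 1 (adjusted p = 0.0834 and 0.0892).

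With all 3 libraries in, Anergic replicates differed from each other more than those of other subsets, and the excess over Treg rested on Anergic replicate 1. A chi-square of Trbv counts over the replicates, divided by its degrees of freedom, was 5.24 in Anergic, 2.50 in Treg, 1.56 in Teff and 1.39 in Naive, where 1 is sampling noise alone. Without Anergic replicate 1 the Anergic value was 2.75, beside 2.19 to 2.73 for Treg with 1 library left out, and without replicate 2 or 3 it was 6.72 or 6.48. As a second measure, the difference in usage between 2 libraries was taken as the share of Trbv counts that would have to change segment to make them equal. It was 6.09 to 7.74% within Naive, 6.18 to 8.07% within Teff, 8.15 to 9.62% within Treg and 8.97 to 13.6% within Anergic, where 8.97%, inside the range of Treg, was the pair without replicate 1. Between subsets the median was largest for Teff and Treg (21.4%, range 17.5 to 24.5%), then Teff and Anergic (17.3%, 14.2 to 21.6%) and Teff and Naive (16.1%, 15.1 to 17.4%). The medians among Naive, Anergic and Treg were 12.2 to 13.2%, and their ranges overlapped with the range within Anergic.

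**Figure D3:**
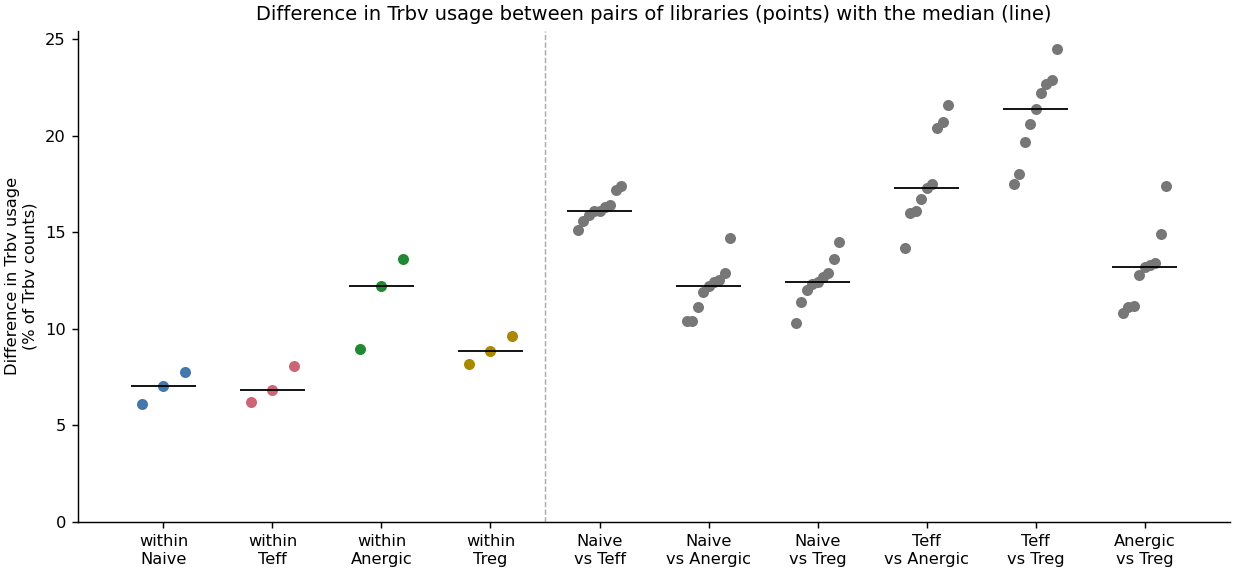
Difference in Trbv usage (% of Trbv counts) on the y axis between pairs of libraries, grouped on the x axis into pairs within a subset (3 each, left of the dashed line) and between subsets (9 each). Points are pairs, which share libraries, and lines are medians. All pairs of Teff with another subset lie at 14.2% or above, and those within a subset at 13.6% or below.

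The remaining V segments at 1% or more, Trbv4, Trbv14, Trbv16, Trbv23 and Trbv26, passed in no comparison of shares, nor did the less used Trbv17 and Trbv30. Trbv23 passed in Teff against Naive without Teff replicate 1 (-1.04, adjusted p = 0.0431) or with Trbv3 left out of the total (-0.91, adjusted p = 0.0499). Pseudogenes took little. Of 13 V pseudogenes 5 had a count, led by Trbv24 with 73 counts in 11 libraries, and together they took 0.680 ± 0.153% of Trbv counts in Naive, 0.540 ± 0.0371% in Treg, 0.277 ± 0.0390% in Anergic and 0.202 ± 0.114% in Teff (SD, n = 3). Naive and Teff did not overlap here, but Trbv24 had too few counts to be tested with all libraries present. Of 28 other annotated genes inside the locus, among them trypsinogens, 27 were in the table, and these held 151 counts in all libraries together.

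The D and J segments are short, which limits what their rows can show. Trbd1 and Trbd2, whose glycine-rich core sits in the middle of the V-D-J joint, are 12 and 14 bases long, so any 50-base read on them reaches beyond them. Trbj segments of 46 to 54 bases carry, near their middle, the codons of the phenylalanine-glycine-any-glycine motif that ends the joint. They are shown with this motif, the codons TTN, GGN, NNN and GGN in a row, in capitals, 3 functional segments with a high count first, then the 3 without a match.
Trbd1: gggacagggggc
Trbd2: gggactgggggggc
Trbj2-7: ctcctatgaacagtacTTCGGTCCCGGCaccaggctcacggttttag
Trbj1-4: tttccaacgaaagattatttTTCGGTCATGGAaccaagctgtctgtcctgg
Trbj2-2: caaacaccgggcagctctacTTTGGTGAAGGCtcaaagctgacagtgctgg
Trbj2-6: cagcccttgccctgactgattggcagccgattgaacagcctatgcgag
Trbj1-7: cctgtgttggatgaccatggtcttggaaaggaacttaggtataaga
Trbj1-6: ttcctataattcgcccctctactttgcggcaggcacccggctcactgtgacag
The motif was in 11 of 14 Trbj segments (78.6%), in 59 of all 80 annotated T cell receptor J segments (73.8%), and in none of the last 48 bases of the 35 Trbv transcripts. It was also searched on the opposite strand, where no J segment held it.

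None of the 2 D and 12 J segments tested passed in any of the 6 comparisons of TMM-scaled CPM. In these comparisons 26.6 to 46.2% of all rows passed. With 6 to 55 counts per library for these segments, the lack of calls does not show equal levels. The smallest adjusted p was 0.0592, for Trbj2-6 in Anergic against Naive. Trbj2-6 (chr6:41543598-41543645, plus strand) is annotated as a pseudogene, yet it had 483 counts, as many as the functional Trbj1-4 (483) and close to Trbj2-7 (485). It read 5.09, 5.94 and 7.88 CPM in Naive, 3.47, 4.82 and 4.20 in Teff, 5.40, 3.51 and 3.72 in Anergic, and 4.94, 5.18 and 5.87 in Treg libraries. The Naive libraries lay above Teff and overlapped with Anergic. The log2 fold change was -0.57 ± 0.243 SE in Anergic against Naive and -0.59 ± 0.243 SE in Teff against Naive (adjusted p = 0.0632). The first passed without Anergic replicate 1 (-0.80, adjusted p = 0.0204), and both without Naive replicate 1 (adjusted p = 0.0370 and 0.0412). Trbj1-7, which lacks the motif although annotated as functional, had 272 counts. With such counts on rows without the motif, Trbj counts here cannot be read as usage of the segments in receptors.

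The first J cluster held 44.2 ± 4.26% of Trbj counts in Naive, 44.9 ± 2.74% in Teff, 41.5 ± 4.21% in Anergic and 44.6 ± 5.01% in Treg (SD, n = 3), which overlapped throughout. Trbd1 held 69.2 ± 9.48% of Trbd counts in Teff and up to 79.6 ± 2.20% in Treg (SD, n = 3). Summed Trbj levels were 47.1 ± 2.65 CPM in Naive, 42.7 ± 2.48 in Anergic, 42.4 ± 2.64 in Treg and 38.3 ± 1.60 in Teff (SD, n = 3). Per count of the constant genes, Anergic libraries had the fewest Trbj counts, 0.0988 to 0.125, against 0.135 to 0.153 in Naive, 0.128 to 0.138 in Teff and 0.126 to 0.147 in Treg. The Anergic values lay just below all others. The replicate chi-square per degree of freedom of Trbj counts was 1.05 in Naive, 1.33 in Teff, 1.40 in Treg and 1.75 in Anergic. Without Anergic replicate 1 the Anergic value was 2.66.

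**Figure D4:**
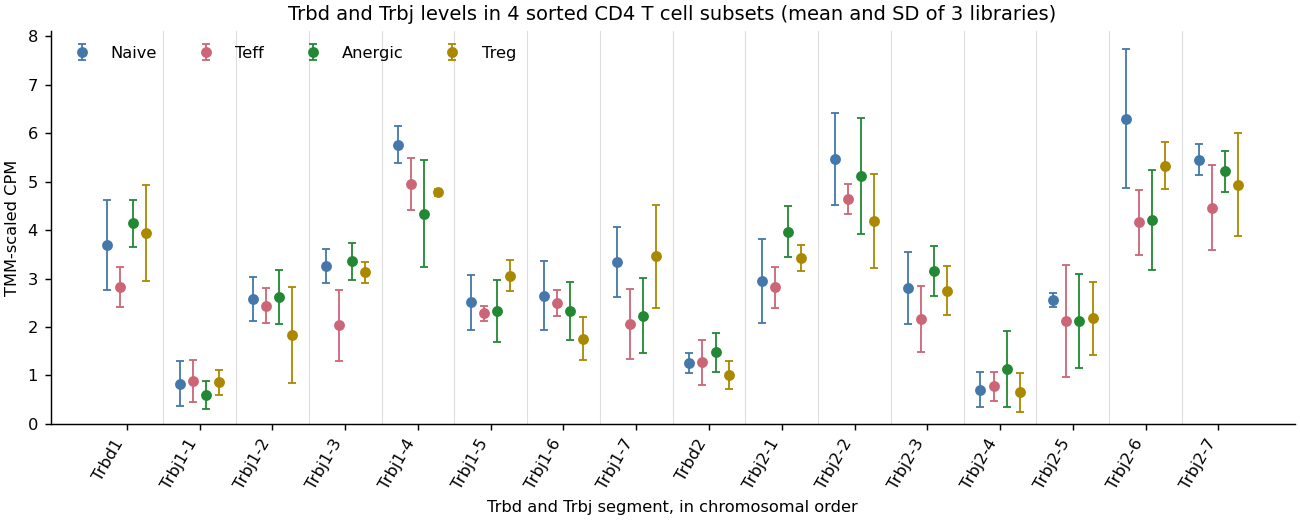
TMM-scaled CPM on the y axis of each D and J segment, in chromosomal order on the x axis. Points are means and bars SD of 3 libraries, coloured by subset. The highest point is Trbj2-6 in Naive (6.30 CPM), and no segment passed the test in a comparison.

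The constant genes Trbc1 (chr6:41538218-41539881, plus strand) and Trbc2 (chr6:41546730-41548352, plus strand) encode the membrane-near domain, the transmembrane part and the short tail of the chain, and a cell uses the one in the cluster it rearranged. Their coding parts are 95.6% identical, with 23 differences in 518 bases and an identical run of 259 bases. The last 160 coding bases are shown because the differences gather there, in capitals.
Trbc1: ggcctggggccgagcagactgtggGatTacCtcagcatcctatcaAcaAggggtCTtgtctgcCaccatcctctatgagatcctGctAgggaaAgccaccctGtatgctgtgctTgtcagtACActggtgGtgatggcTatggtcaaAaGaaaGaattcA
Trbc2: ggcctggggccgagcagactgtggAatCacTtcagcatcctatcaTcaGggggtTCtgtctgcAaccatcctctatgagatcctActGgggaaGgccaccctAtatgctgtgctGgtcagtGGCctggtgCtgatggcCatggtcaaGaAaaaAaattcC
Of the 50-base windows, 41.1% in Trbc1 and 44.0% in Trbc2 occur in the other, so both levels are uncertain to the extent that shared reads were split. Trbc1 made up 47.3 ± 0.946% of their counts in Naive, 48.3 ± 1.39% in Teff, 48.9 ± 3.58% in Anergic and 46.0 ± 0.781% in Treg (SD, n = 3). The libraries of Treg (45.5 to 46.9%) lay below those of Teff (47.2 to 49.9%), and those of Naive and Anergic (45.5 to 52.6%) overlapped with both.

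Both constant genes were highest in Anergic cells. Trbc1 read 185, 172 and 196 CPM in Anergic, 144, 161 and 154 in Naive, 134, 136 and 144 in Teff, and 134, 139 and 147 in Treg libraries. The Anergic libraries lay above all others. Anergic exceeded Teff by 1.34-fold (log2 ratio 0.42 ± 0.0674 SE, adjusted p = 3.24e-05), Treg by 1.32-fold (0.40 ± 0.0672 SE, adjusted p = 4.78e-05) and Naive by 1.20-fold (0.27 ± 0.0674 SE, adjusted p = 0.00209), and these calls held under each alternative. The other 3 comparisons of Trbc1 did not pass.

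Trbc2 read 167, 206 and 207 CPM in Anergic, 163, 172 and 176 in Naive, 135, 152 and 157 in Teff, and 160, 166 and 167 in Treg libraries. Anergic replicate 1 lay within the range of Naive. Anergic exceeded Teff by 1.31-fold (0.39 ± 0.0776 SE, adjusted p = 4.59e-04). It exceeded Treg by 1.18-fold (0.23 ± 0.0770 SE, adjusted p = 0.0223), which no longer passed when Anergic replicate 2 (adjusted p = 0.120), Anergic replicate 3 (0.104) or Treg replicate 1 (0.0690) was left out, or with scaling by total counts (0.373). Against Naive it did not pass (0.18 ± 0.0774 SE, adjusted p = 0.0596), but did without Anergic replicate 1 (0.27, adjusted p = 0.00252). Teff was called below Naive (-0.21 ± 0.0782 SE, adjusted p = 0.0443), a call lost in 9 alternatives, with an adjusted p of 0.0560 to 0.234 without Naive replicate 2 or 3, Teff replicate 1 or 2 or any of the Treg libraries.

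Summed over all V segments, Anergic was again highest and Teff lowest, with 287, 300 and 342 CPM in Anergic, 259, 262 and 263 in Treg, 246, 258 and 256 in Naive, and 201, 232 and 230 in Teff libraries. Teff lay below and Anergic above all others. Anergic replicate 3 had the lowest TMM factor (0.871, against 0.956 to 1.05 in the others), which raises its CPM relative to scaling by total counts. As a share of all counts, Trb rows were 0.0684 to 0.0725% in Anergic and 0.0538 to 0.0654% elsewhere. Of the Trb rows, 11 were higher in Anergic than in Teff (13.9% of all tested rows) and 1 lower (12.7%, 26.6% either way). Against Treg, 8 were higher in Anergic (15.6%) and 1 lower (15.3%, 31.0% either way), and against Naive 6 higher (25.0%) and 1 lower (21.3%, 46.2% either way). In Teff against Naive 2 were higher (19.2%) and 8 lower (15.7%, 34.9% either way). In Treg against Teff 5 were higher (15% of all rows) and 3 lower (14.1%, 29.1% either way), and in Treg against Naive 2 higher (19% of all rows) and 1 lower (13.9%, 32.8% either way). These counts are of 37 tested rows, so with both directions pooled the share of called Trb rows was above that of all rows in Anergic against Teff (32.4%) and below it in the other 5 comparisons. Among the 21 V rows alone the pooled share was 47.6% in Anergic against Teff, 33.3% in Anergic against Treg, 42.9% in Teff against Naive and 38.1% in Treg against Teff, all above that of all rows, and 28.6% in Anergic against Naive and 14.3% in Treg against Naive, both below. The median log2 fold change of the tested Trb rows was 0.42 in Anergic against Teff, 0.23 in Anergic against Treg and -0.27 in Teff against Naive, where all rows had 0.00, 0.00 and 0.01. Scaling by total counts shifted the median of all rows by up to -0.13 and gave 7 higher and 2 lower, 4 and 2, and 5 and 2 in the Anergic comparisons, and 2 and 0 in Treg against Naive. Without Anergic replicate 3 the count against Treg was 5, and without Anergic replicate 1 that against Naive was 12.

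**Figure D5:**
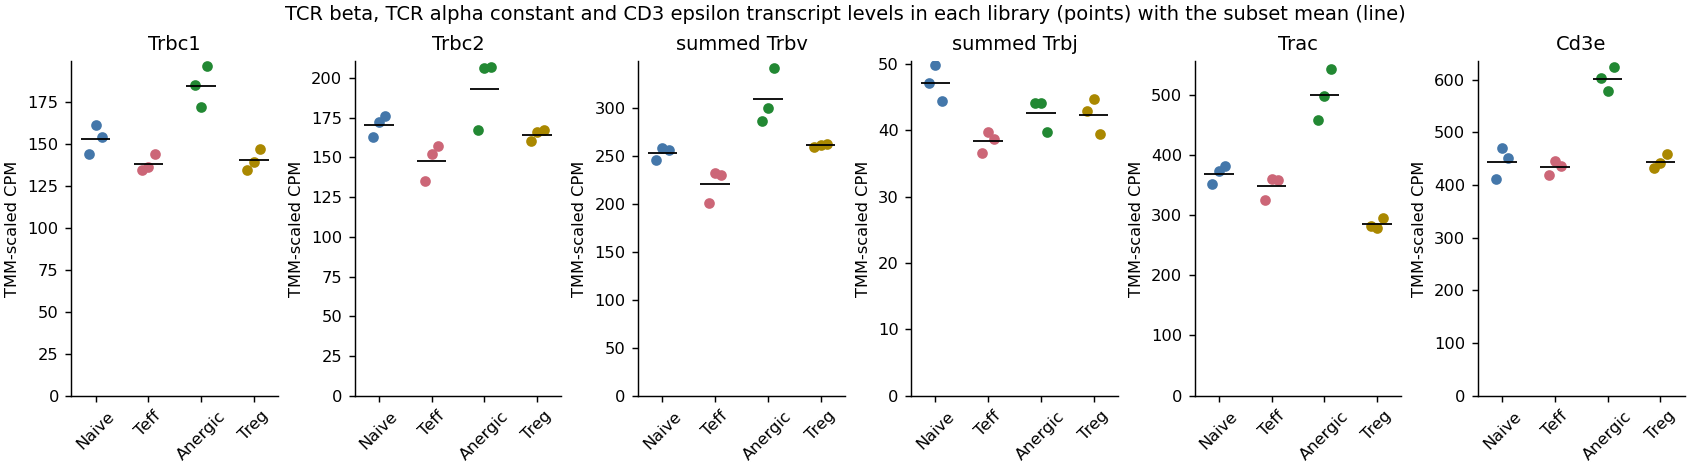
TMM-scaled CPM on the y axis of each panel for Trbc1, Trbc2, all Trbv, all Trbj, the alpha constant gene Trac and Cd3e, by subset on the x axis. Each point is 1 library and each line the mean of 3. Anergic points are highest for Trbc1 (172 to 196 CPM), summed Trbv, Trac and Cd3e, and not for summed Trbj.

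By level, Trbv19 was higher in Anergic cells than in each other subset. It read 35.1, 18.6 and 28.4 CPM there, 16.1, 13.6 and 12.9 in Naive, 9.84, 11.6 and 9.29 in Teff, and 13.3, 12.6 and 17.8 in Treg libraries. Anergic libraries did not overlap with the others, with 2.67-fold over Teff (1.42 ± 0.186 SE, adjusted p = 2.08e-06), 1.88-fold over Treg (0.91 ± 0.176 SE, adjusted p = 2.55e-04) and 1.93-fold over Naive (0.95 ± 0.181 SE, adjusted p = 1.33e-04). These calls held under each alternative, also without Anergic replicate 1. Trbv12-1 was again higher in Treg, at 14.1, 19.1 and 12.8 CPM, with 4.36-fold over Teff (2.12 ± 0.265 SE, adjusted p = 7.51e-07), 4.14-fold over Naive (2.05 ± 0.268 SE, adjusted p = 1.33e-06) and 2.77-fold over Anergic (Anergic minus Treg -1.47 ± 0.248 SE, adjusted p = 4.99e-05). Trbv29 was the 1 row lower in Anergic than in Teff (-0.72 ± 0.238 SE, adjusted p = 0.0255). It no longer passed when Teff replicate 1 (adjusted p = 0.0577), Teff replicate 2 (0.0636) or Anergic replicate 1 (0.152) was left out. Trbv1 did not pass there (-0.48 ± 0.180 SE, adjusted p = 0.0525) but did in 8 alternatives, with an adjusted p down to 0.00211 when Anergic replicate 3 was left out. Trbv13-2, whose share was highest in Teff, had nearly equal levels in Teff (34.7 ± 1.61 CPM) and Anergic (34.4 ± 2.58 CPM) cells (SD, n = 3).

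The beta chain reaches the surface only together with the alpha chain and the CD3 chains. Of the 10 genes listed for this complex and its assembly 7 were tested, and Ptcra and Rag2 had no count in any library. In Anergic against Teff 5 were higher (13.9% of all rows) and 1 lower (12.7%), in Anergic against Treg 5 (15.6%) and 2 (15.3%), and in Anergic against Naive 3 (25.0%) and 2 (21.3%), while in Teff against Naive none was higher (19.2%) and 3 were lower (15.7%). Among these, Cd3g in Anergic against Teff no longer passed with Teff replicate 1 left out (adjusted p = 0.0729) or with scaling by total counts (0.0627). Cd3d in Teff against Naive was lost in 5 alternatives, those that left out Naive replicate 2 (0.0616), Naive replicate 3 (0.239), Teff replicate 1 (0.197) or Treg replicate 3 (at the threshold) and scaling by total counts (0.107). Their median log2 fold change was 0.34, 0.44, 0.11 and -0.08 in these comparisons. Trac, the alpha constant gene, read 458 to 542 CPM in Anergic, 351 to 381 in Naive, 325 to 360 in Teff and 278 to 296 in Treg. Anergic exceeded Treg by 1.75-fold (0.81 ± 0.0686 SE, adjusted p = 1.46e-09), and Treg was the lowest subset, below Naive by 1.29-fold (-0.37 ± 0.0688 SE, adjusted p = 1.51e-04). In that comparison Trbc1 did not pass (-0.13 ± 0.0680 SE, adjusted p = 0.151), and the difference between both genes was not tested.

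Cd3e, a signalling chain of CD3, read 578 to 624 CPM in Anergic and 411 to 470 in the other subsets, with 1.39-fold over Teff (0.47 ± 0.0633 SE, adjusted p = 2.69e-06). Cd3g was 782 ± 32.6 CPM in Anergic and 503 ± 48.5 in Treg, Cd3d 215 ± 11.1 and 178 ± 16.6, and Cd247, the zeta chain, 356 ± 25.3 and 261 ± 10.3 (SD, n = 3). Anergic exceeded Treg in all 3 (adjusted p = 5.04e-06, 0.0121 and 5.76e-06), though Cd3d no longer passed when Anergic replicate 3 (adjusted p = 0.0528) or Treg replicate 1 (0.0758) was left out, or with scaling by total counts (0.205). In the other direction Trat1, an adaptor that binds the CD3 complex, was 3.04-fold lower in Anergic than in Teff (-1.61 ± 0.176 SE, adjusted p = 1.24e-07). Dntt, the enzyme that adds untemplated bases at the V-D-J joint, was highest in Naive cells, with 8.80 to 11.8 CPM against at most 1.88 elsewhere, and 13.6-fold lower in Teff (-3.77 ± 0.342 SE, adjusted p = 3.66e-09).

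The 7 factors listed for the Trb enhancer and promoters were all tested. In Teff against Naive 4 were higher (19.2% of all rows) and 1 lower (15.7%), and in Treg against Teff none was higher and 4 were lower (14.1%). In Anergic against Teff 1 was higher (13.9%) and 3 lower (12.7%), and in Anergic against Treg 4 were higher (15.6%) and none lower. The 1 higher in Anergic than in Teff was Gata3 (0.20 ± 0.0685 SE, adjusted p = 0.0332), a call lost in 7 alternatives, among them without Anergic replicate 1 (0.138), Anergic replicate 3 (0.120), Naive replicate 3 (0.0504) or Teff replicate 3 (0.216) and with scaling by total counts (0.412). Tcf12 in Treg against Teff was lost without Teff replicate 1 (0.0890) or Treg replicate 3 (0.0639) and with scaling by total counts (0.119). The 4 called higher in Anergic than in Treg were Cbfb, Gata3, Runx1 and Runx3. With scaling by total counts none of them passed in that comparison (adjusted p of 0.297, 0.590, 0.0551 and 0.0592). Runx3, a factor of cytotoxic and effector T cells, had the largest fold of the 7 in Anergic and Treg against Teff, with 168 to 179 CPM in Teff, 106 to 110 in Naive, 64.6 to 83.9 in Anergic and 52.6 to 60.2 in Treg. It was 2.40-fold lower in Anergic than in Teff (-1.26 ± 0.0786 SE, adjusted p = 7.35e-12) and 3.04-fold lower in Treg (-1.61 ± 0.080 SE, adjusted p = 7.63e-14). Gata3, a factor of T cell development and Th2 cells, was 65.9 ± 0.409 CPM in Naive and 136 ± 11 in Teff (SD, n = 3; 1.04 ± 0.0732 SE, adjusted p = 3.48e-11). Mean Runx3 was 174 CPM in Teff, 108 in Naive, 72.9 in Anergic and 57.4 in Treg. Mean summed Trbv was 221 CPM in Teff, 254 in Naive, 309 in Anergic and 262 in Treg. A link between both was not tested.

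Markers of other cells were low beside Cd4, which read 445 to 1297 CPM. The CD8 T cell genes Cd8a and Cd8b1 summed to 12.6 to 17.1 CPM in Naive, 9.86 to 11.8 in Treg, 5.05 to 5.86 in Anergic and 3.70 to 6.23 in Teff, nearly all from Cd8b1, with Cd8a at most 1.14 in a library. The 5 B cell genes summed to 2.27 to 2.60 CPM in Naive, 2.31 to 3.69 in Teff, 4.12 to 4.93 in Anergic and 7.16 to 7.86 in Treg. The gamma delta T cell genes, with 2 of 5 listed names in the table, summed to 3.51 to 8.90 CPM in Anergic and 1.74 to 4.68 elsewhere. The 5 myeloid and dendritic cell genes summed to 20.9 to 21.8 CPM in Naive, 26 to 31 in Teff, 28.4 to 33.0 in Anergic and 31.1 to 33.9 in Treg. Most of this sum was Cst3, with means of 19.7 CPM in Naive, 19.8 in Teff, 23.6 in Anergic and 28.6 in Treg. Lyz2 was highest in Teff (mean 5.64 CPM, against 2.74 in Treg). Csf1r was higher in Anergic (2.83) and Teff (2.73) than in Treg (1.08). Itgax and Flt3 read at most 0.758 CPM in a library. The part of these cells in the Trb values was not tested.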

How the data were processed

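The labels describe RNA extraction with a QIAGEN RNeasy kit, libraries from a Takara stranded total RNA kit for small input, and paired-end reads of 50 bases. The authors deposited 1 table of raw counts per gene and library; per the submitters' processing notes the reads were aligned with HISAT2 to GRCm38 and counted with featureCounts. Neither the annotation nor the strand setting of that step is given in the sources used here. Receptor reads that cross a V-D-J joint are chimeric to the genome, so counts of V, D and J rows can depend on how the aligner clipped them.

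Rows were filtered with edgeR's filterByExpr, which left 13393, and fitted over all 12 libraries with edgeR 4.0.16 (R 4.3.3), by the quasi-likelihood test with Benjamini-Hochberg adjustment over all rows and a threshold of 0.05. One fit used TMM scaling, the other the summed Trbv counts of a library as its size. Alternatives were DESeq2 1.42.0 and its size factors, limma 3.58.1 voom, total counts, other filters, only the compared subsets, another Trbv total, a replicate block and leaving out each library. On simulated data for Anergic against Teff, the TMM fit of 12982 rows found 87% of 100 genes changed 2-fold and 98% of 100 changed 4-fold with 10 false calls, and the share fit of 12928 rows found 90% and 98% with 10 false calls. The changed genes were outside the Trb family, all rows had the same dispersion, and unchanged rows followed the library size of each fit. These rates therefore do not carry over to the V segments in the share fit of the real data. Sequences, lengths and shared windows came from GENCODE M21 (GRCm38). The V segments described were the 19 with a mean share of at least 1%. Members and lists were chosen with earlier results of these data known. Depth was 6909035 to 9527897 counts per library.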

Additional observations from a re-analysis of the deposited data

How the results depend on the processing

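No result reversed under an alternative. Of 49 called results by level, 31 were called under every alternative, and of 35 called shares 19 were. The count of Trb rows called by level ranged from 5 to 11 in Anergic against Treg and from 6 to 12 in Anergic against Naive when 1 library was left out, from 9 and 7 with all. The count of called shares ranged from 2 to 5 in Anergic against Treg (4 with all), from 5 to 9 in Teff against Naive (8) and from 1 to 3 in Treg against Naive (2). The labels do not say that a number marks a shared mouse or batch, so the numbers were not taken as a pairing. The correlation of same-numbered libraries was over 0.1 in 4 of 18 pairs (-0.0485 to 0.184), and in 1 of 36 pairs with different numbers. In the data, though not in the labels, 31 of 36 matches were best with the library's own number, each among the 3 libraries of another subset. Without any grouping, 1 in 3 matches would be best with the own number, though the matches share libraries. The median correlation was 0.0652 for the same number and -0.0437 for different numbers. Same-numbered libraries were thus more alike than others, and the main fits do not model this. What the numbers mark is not known from the labels. The fit with the replicate block called 13, 9, 10, 12, 3 and 10 Trb rows by level in Anergic against Teff, Treg and Naive, Teff against Naive, Treg against Naive and Treg against Teff, and 9, 5, 5, 9, 3 and 9 shares. Calls gained under it include Trbc1 in Teff against Naive (adjusted p = 0.0419), Trbc2 in Anergic against Naive (0.0125), and the shares of Trbv1 in Anergic against Naive (0.0359), Trbv12-2 in Anergic against Treg (0.0490) and Trbv13-3 in Anergic against Teff (0.0366).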
